A study of Mus musculus with 2 samples.

Results

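The 5 annotated miRNA loci described here lie inside genes of lipid and energy metabolism, and their levels were measured in the liver of mouse embryos at day 12.5. They are Mir103-1, Mir103-2 and Mir107 in the pantothenate kinase genes Pank3, Pank2 and Pank1, Mir33 in the sterol regulator gene Srebf2, and Gm25301, annotated opposite Mir378a in Ppargc1b. They were chosen by name from the GENCODE annotation, with earlier results of these data known. All 5 were found among the 1973 miRNA genes of the deposited tables. MicroRNA-seq, the sequencing of short RNA of under 30 bases, had been done on 2 biological replicates of 1 group: strain B6NCrl, healthy embryos, males and females pooled. Livers of 88 embryos were pooled for replicate 2 and of 120 embryos for replicate 1. No other tissue, age or treatment is named, and the pools carry a common donor identifier, so every difference below is between 2 libraries that may differ partly for technical reasons.

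MicroRNAs are cut from a hairpin, and an arm of it, the mature miRNA of about 22 bases, is loaded into Argonaute and guides it to messenger RNAs that pair with the seed, bases 2 to 8. Pantothenate kinases catalyse the committed step of coenzyme A synthesis, and miR-103 and miR-107 are known for effects on insulin sensitivity in liver and fat. Srebf2 encodes SREBP-2, the transcription factor that turns on cholesterol synthesis and uptake, and miR-33 is known to repress the cholesterol exporter Abca1. Ppargc1b encodes PGC-1 beta, a coactivator of mitochondrial and fatty acid oxidation genes, and miR-378 from its intron is known to act on the same kind of metabolism.

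The sequences of these miRNAs are shown first because they decide which reads a table of uniquely aligned reads can hold. In the RefSeq records on GRCm38.p6, printed 5′ to 3′ with the seed in capitals, the main arms of the Pank miRNAs have a common seed and Mir33 has another.
miR-103-3p (Mir103-1 and Mir103-2): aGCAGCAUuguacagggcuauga
miR-107-3p (Mir107): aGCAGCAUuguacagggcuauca
miR-33-5p (Mir33): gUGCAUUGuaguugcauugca
Both Mir103 genes encode the same 23 bases of miR-103-3p. Counted from 1 at the 5′ end, miR-103-3p and miR-107-3p differ by a single substitution, G22C, and are the same at the other 22 positions.

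The hairpins differ outside this arm. With the mature 3p arm in capitals for the Pank miRNAs and the 5p arm in capitals for Mir33, the RefSeq hairpins read as follows.
Mir103-1: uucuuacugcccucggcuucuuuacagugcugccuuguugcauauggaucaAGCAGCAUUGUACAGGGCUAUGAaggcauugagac
Mir103-2: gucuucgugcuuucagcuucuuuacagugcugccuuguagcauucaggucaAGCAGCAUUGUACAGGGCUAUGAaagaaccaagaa
Mir107: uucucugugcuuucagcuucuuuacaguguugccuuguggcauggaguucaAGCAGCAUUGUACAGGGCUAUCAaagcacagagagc
Mir33: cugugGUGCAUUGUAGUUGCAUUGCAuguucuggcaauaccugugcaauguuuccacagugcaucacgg
Over their full length, Mir103-1 and Mir103-2 are 80.2% identical, Mir103-2 and Mir107 83.9%, and Mir103-1 and Mir107 80.5%. The other arms, miR-103-1-5p and miR-103-2-5p, differ by G1A, and miR-103-2-5p and miR-107-5p by C16U. No sequence is shown for Gm25301 or Mir378a.

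How long a read must be to match a single hairpin follows from these letters. Among the 2202 miRNA genes of GENCODE M21, a read that starts at the first base of miR-103-3p and is 18 to 21 bases long is held by 3 hairpins, those of Mir103-1, Mir103-2 and Mir107. At 22 to 24 bases it is held by both Mir103 hairpins, and from 25 bases, past the end of the mature miRNA, by 1. A read of miR-107-3p matches 3 hairpins up to 21 bases and Mir107 alone from 22 bases. The 5p arms of all 3 genes and both arms of Mir33 matched 1 hairpin each at every length from 18 bases. This search covered annotated hairpins and exact matches, not the whole genome.

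**Figure D1:**
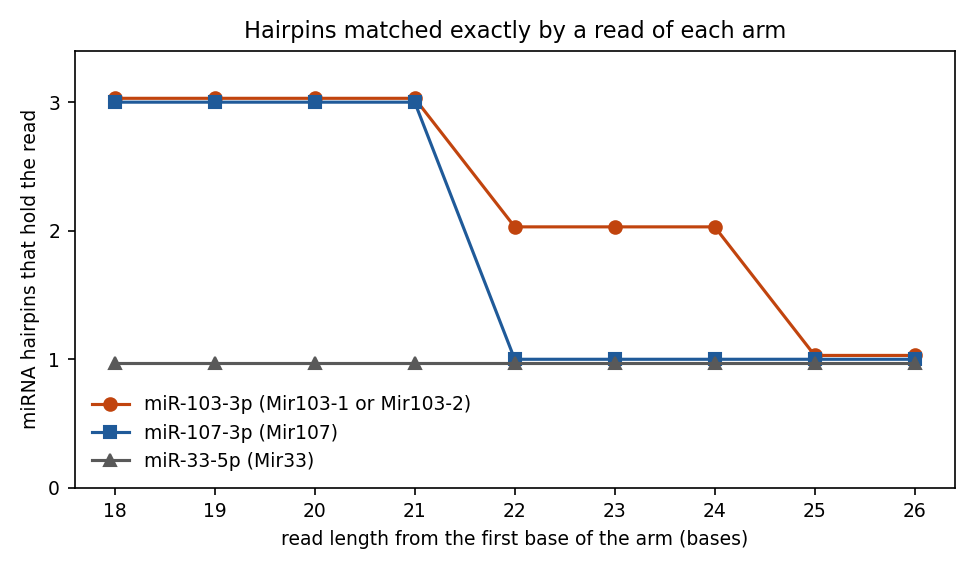
Number of GENCODE M21 miRNA hairpins (y axis) that hold a read of the length on the x axis starting at the first base of miR-103-3p, miR-107-3p or miR-33-5p. Lines are set apart slightly so that they stay visible. Full-length miR-103-3p matches 2 hairpins, miR-107-3p becomes single at 22 bases, and miR-33-5p matches 1 hairpin throughout.

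The tables leave out reads that align to several places, which made up 31.1% of all reads in replicate 2 and 28.8% in replicate 1. Replicate 2 had 3534816 sense counts on miRNA genes among 11013976 reads, and replicate 1 had 3447858 among 11057424. Levels are given as counts per 1000000 of these sense counts (CPM), with mean ± SD over n = 2. Intervals and limits are computed from read counts and cover counting error only. The reads carry no molecular identifiers. By markers, the tissue held miRNAs of hepatocytes (Mir122 at 54020 ± 9750 CPM), endothelium (Mir126a at 68490 ± 461 CPM) and red cells (Mir451a at 32496 CPM in replicate 2 and 12422 CPM in replicate 1), while the listed Mir124a genes of neurons and Mir1a-1 and Mir133a-1 of muscle had 0 counts. The mesenchyme markers Mir143 and Mir145a stood at 19685 ± 916 and 252 ± 31.4 CPM, and Mir375 of pancreas at 2194 ± 153 CPM. Of the leukocyte markers, Mir223 stood at 6256 ± 951 CPM and Mir155 at 234 ± 6.76 CPM. Mir142b had 0 sense counts but a mean of 42354 CPM on its opposite strand, so its 0 is no sign of absence. In bulk tissue, fewer cells of a type and less RNA per cell cannot be told apart. These neuron and muscle genes share runs of 20 bases with other copies, so a count of 0 does not bound them. Other muscle miRNAs did have counts: Mir206 had 1019 in replicate 2 and 444 in replicate 1, and Mir133b 19 and 8.

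In mm10 coordinates of GENCODE M21, each Pank miRNA lies in intron 5 of its host, in the principal transcript of 7 exons. Mir103-1 (ENSMUSG00000065553.1) spans chromosome 11, 35782396 to 35782481, plus strand, in intron 5 of Pank3, 688 bases from the nearest exon. Mir103-2 (ENSMUSG00000065563.1) spans chromosome 2, 131288052 to 131288137, plus strand, in intron 5 of Pank2, 454 bases from the nearest exon. Mir107 (ENSMUSG00000065594.1) spans chromosome 19, 34820687 to 34820773, minus strand, in intron 5 of Pank1, 326 bases from the nearest exon. All of these and Mir33 lie on the strand of their host. Mir33 (ENSMUSG00000065465.1) spans chromosome 15, 82198122 to 82198190, plus strand, in intron 16 of Srebf2. Gm25301 (ENSMUSG00000093026.1) lies on the plus strand of chromosome 18, from 61397813 to 61397925, within intron 1 of Ppargc1b, which is read from the minus strand. Mir378a (ENSMUSG00000105200.1), at 61397835 to 61397900 on the minus strand, lies wholly within the span of Gm25301.

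Of the Pank miRNAs, Mir107 carried nearly all uniquely aligned counts. Mir107 had 5834 counts in replicate 2 and 5626 in replicate 1, or 1650 and 1632 CPM. Its mean of 1641 ± 13.2 CPM (SD, n = 2) placed it at rank 85 of 1973 genes. On this scale of total sense counts the replicates differed by about 1 part in 100, and the rank was 85 in replicate 2 and 86 in replicate 1.

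Mir103-2, the copy in Pank2, stood more than an order of magnitude lower. It had 403 counts in replicate 2 and 268 in replicate 1, or 114 and 77.7 CPM, with a mean of 95.9 ± 25.7 CPM (SD, n = 2) and rank 215. Mir103-1, the copy in Pank3, had 21 counts in replicate 2 and 10 in replicate 1, or 5.94 and 2.9 CPM. Its mean of 4.42 ± 2.15 CPM put it at rank 362. For both copies replicate 2 was the higher library, and for Mir103-1 the difference rests on 31 counts in all.

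Summed over the 3 Pank miRNAs, the counts came to 1770 CPM in replicate 2 and 1712 CPM in replicate 1, 1741 ± 41.0 CPM (SD, n = 2). Mir107 held 93.2% of this sum in replicate 2 (95% exact Clopper-Pearson interval 92.6 to 93.8%) and 95.3% in replicate 1 (94.7 to 95.8%). Mir103-2 held 6.44% (5.84 to 7.08%) in replicate 2 and 4.54% (4.02 to 5.1%) in replicate 1. The share of Mir103-1 was 0.336% (0.208 to 0.513%) and 0.169% (0.0813 to 0.311%). Within a library, Mir107 exceeded Mir103-2 by 14.5 times in replicate 2 (95% interval 13.1 to 16.1) and by 21 times in replicate 1 (18.6 to 23.8), so the intervals did not overlap. Mir103-2 exceeded Mir103-1 by 19.2 times (12.4 to 31.3) and 26.8 times (14.3 to 56.5), with overlapping intervals.

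These ratios are ratios of uniquely aligned counts, and cannot be read as ratios of the mature miRNAs. A full-length read of miR-103-3p fits both Mir103 genes and belongs to neither row, while a full-length read of miR-107-3p fits Mir107 only. The tables do not separate the arms or the read lengths, so whether the 671 counts on Mir103-2 are 5p reads or longer 3p reads was not tested. The levels of both Mir103 genes are uncertain for this reason, and that of Mir107 would lack reads of miR-107-3p of 21 bases or fewer.

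Mir33, whose arms match no second hairpin, was a low-level miRNA in this tissue. It had 396 counts in replicate 2 and 313 in replicate 1, or 112 and 90.8 CPM. Its mean was 101 ± 15.0 CPM (SD, n = 2), rank 212, or 0.0101% of the sense counts. Mir33 and Mir103-2 did not differ beyond their spread: their ratio was 0.983 in replicate 2 (95% interval 0.853 to 1.13) and 1.17 in replicate 1 (0.989 to 1.38), and the order of the pair changed between the libraries. The ratio of Mir107 to Mir33 was 14.7 in replicate 2 and 18 in replicate 1.

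The highest signal among these loci lay on the strand opposite to Gm25301. There, 34313 counts were found in replicate 2 and 32749 in replicate 1, or 9707 and 9498 CPM on the scale of sense counts, with a mean of 9603 ± 148 CPM (SD, n = 2). On the sense strand of Gm25301 both libraries had 0 counts. With 3 counts taken as the limit for a count of 0, this allows at most 0.849 CPM in replicate 2 and 0.87 CPM in replicate 1. The opposite strand therefore held 100% of the 67062 counts at this place, with a lower 95% exact bound of 99.99%. That is the strand on which M21 annotates Mir378a, which has no row of its own in the counts analysed here.

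Set among the sense levels of all listed genes, 9603 CPM would take rank 29, between Mir379 at 10073 ± 12.0 CPM and Mir92-1 at 9526 ± 830 CPM. It exceeded Mir107 by 5.88 times in replicate 2 (95% interval 5.72 to 6.05) and by 5.82 times in replicate 1 (5.66 to 5.99), a ratio that was alike in the 2 libraries. Its ratio to Mir33 was 86.6 in replicate 2 and 105 in replicate 1. Gm25301 shares a run of 20 bases with Mir378c, so reads that fit both places are missing from this count as well.

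**Figure D2:**
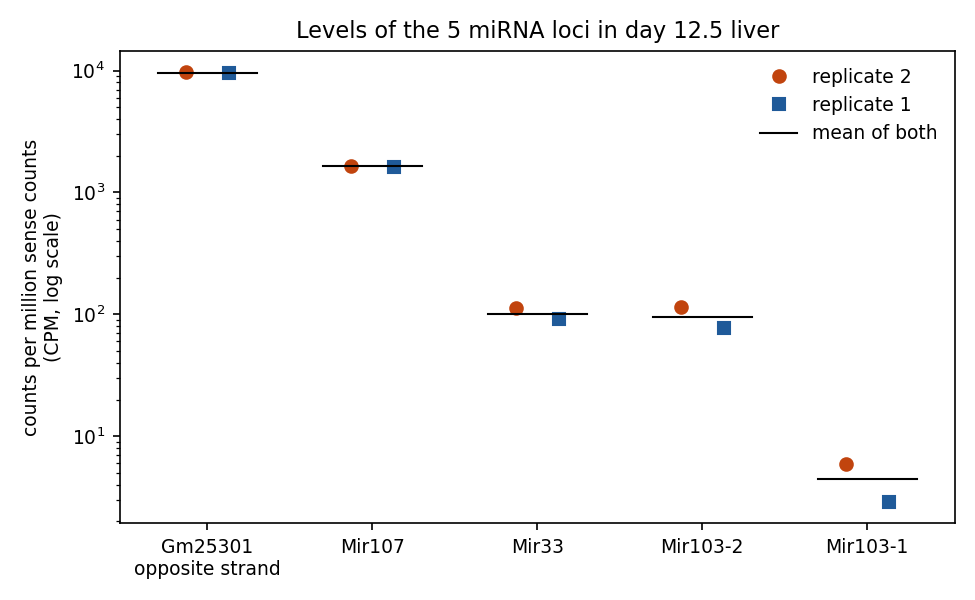
Level of each locus in CPM (log scale), with replicate 2 as circles, replicate 1 as squares and the mean of both as a line. The opposite strand of Gm25301 stands at 9707 and 9498 CPM and Mir107 at 1650 and 1632 CPM, while Mir33 and Mir103-2 lie side by side at means of 101 and 95.9 CPM and Mir103-1 is lowest.

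Strand use at the other loci was the reverse. Mir103-1, Mir103-2, Mir107 and Mir33 each had 0 opposite-strand counts in both libraries. By the upper 95% exact Clopper-Pearson limit, this allows Mir107 an opposite-strand share of up to 0.0632% in replicate 2 and 0.0655% in replicate 1. For Mir33 that limit is 0.927% and 1.17%. For Mir103-1, with few counts, the limit is 16.1% and 30.8%. Of the 301 genes detected by sense counts, 262 likewise had 0 opposite-strand counts in both libraries.

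A gene is called detected here at 10 CPM in both libraries, which 15.3% of the 1973 listed genes reached. Of the 5 members, 3 reached it by sense counts (Mir107, Mir33 and Mir103-2), and Mir103-1 and the sense strand of Gm25301 did not. Genes within an intron of a protein-coding gene on the same strand, the class that holds the 4 members other than Gm25301, were detected in 106 of 661 cases, or 16.0%, against 195 of the 1312 others, or 14.9%. The median level of the detected genes was 262 CPM in the class and 332 CPM among the others. Within the class, Mir107 ranked 27, Mir33 ranked 69, Mir103-2 ranked 70 and Mir103-1 ranked 130.

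**Figure D3:**
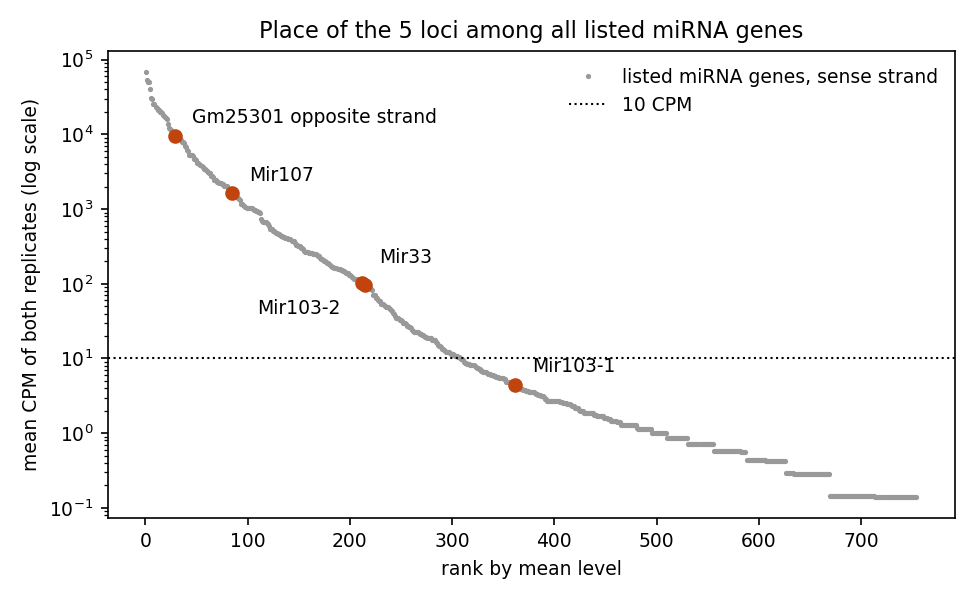
Mean CPM of both replicates (log scale) against rank for the listed miRNA genes with counts above 0, in grey, with the 5 loci in colour and 10 CPM as a dotted line. The opposite strand of Gm25301 is drawn at rank 29 although it is no gene of the list, Mir107 lies at 85, Mir33 and Mir103-2 at 212 and 215, and Mir103-1 at 362 below the line.

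By level, the listed genes closest to Mir107 were Mir467e at 1707 ± 79.7 CPM and Mir196b at 1633 ± 119 CPM, each within 1 SD of its own mean from Mir107. Next to Mir33 stood Mir758 at 105 ± 28.1 CPM and Mirlet7a-1 at 99.6 ± 27.7 CPM. Next to Mir103-2 stood Mirlet7a-2 at 97.6 ± 39.2 CPM and Mir6240 at 95.6 ± 71.6 CPM, and next to Mir103-1 stood Mir491 at 4.45 ± 1.09 CPM and Mir504 at 4.28 ± 1.95 CPM. With 2 libraries of 1 group, likeness could be measured on the mean level only.

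Between the 2 libraries, 4 of the 5 loci were higher in replicate 2 and 0 were lower, in an exact binomial test (two-sided) that used TMM-scaled library sizes and was adjusted by Benjamini-Hochberg over all 465 rows tested. Across those rows 22.2% were called higher, 18.3% lower and 40.4% either way, since the test counts any difference beyond counting error. Rows with more counts are called more often. Among rows with at least 100 counts, 4 of 4 loci were higher, beside 99 higher and 83 lower of 290 rows. The log2 ratio, replicate 2 over replicate 1, was 0.61 for Mir103-2 (95% interval 0.38 to 0.84), a 1.52-fold difference with an adjusted p of 3.41e-07 in the exact test. For Mir33 it was 0.36 (0.14 to 0.58), with an adjusted p of 0.00326 in the exact test. The opposite strand of Gm25301 differed by 0.09 (0.06 to 0.11), with an adjusted p of 6.82e-14, and Mir107 by 0.07 (0.02 to 0.12), with an adjusted p of 0.0233, both in the exact test. Mir103-1 had the largest ratio of the members, 1.05, but on so few counts the interval ran from -0.06 to 2.34 (adjusted p = 0.112, exact test) and the gene was not called. Of the erythroid markers, Mir451a stood at 32496 CPM in replicate 2 and 12422 CPM in replicate 1 and Mir144 at 4042 and 3300 CPM, while Mir486 went the other way, at 892 and 1204 CPM. Their sum of 37430 and 16926 CPM was thus carried by Mir451a. Hepatocyte Mir122 stood at 47128 CPM in replicate 2 and 60913 CPM in replicate 1. The part of such shifts in the ratios above was not tested.

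The calls depend on what spread is assumed. With library sizes as total counts, Mir107 was no longer called (log2 ratio 0.02, adjusted p = 0.691, exact test), and over all rows 78 were called higher and 101 lower, against 103 and 85 with TMM. In edgeR's negative binomial exact test with an assumed coefficient of variation of 0.1, 0 of the 5 loci passed, the nearest being Mir103-2 with an adjusted p of 0.209, and 1 of the 5 had an unadjusted p under 0.05. The coefficient estimated by edgeR from the 2 libraries was 0.162, and with it again 0 passed, also unadjusted. That estimate took the 2 libraries as replicates of each other, so it contains the difference being tested. Few calls are then likely whatever the loci do, and no conclusion is drawn from them. Over all 465 rows, 12 passed at 0.1 and 5 at the estimated coefficient. The median absolute log2 ratio over all rows was 0.257, so that Mir107 and the opposite strand of Gm25301 lay below it and Mir33, Mir103-2 and Mir103-1 above it. A larger ratio than that of Mir103-2 was seen in 19.4% of the rows, and a larger one than that of Mir103-1 in 7.74%.

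**Figure D4:**
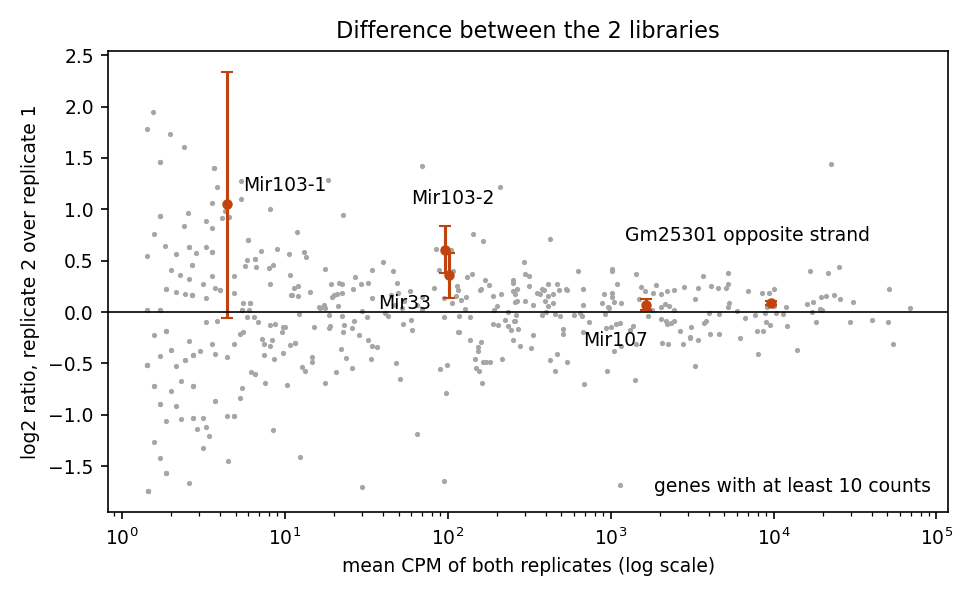
Log2 ratio of replicate 2 over replicate 1 (y axis, TMM-scaled) against mean CPM (x axis, log scale) for the rows with at least 10 counts over both libraries, in grey, and the 5 loci in colour with 95% exact intervals. Mir103-2 and Mir33 lie above 0 with intervals clear of it, Mir107 and the opposite strand of Gm25301 lie close to 0, and the interval of Mir103-1 runs from -0.06 to 2.34.

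The miR-103 and miR-107 sequences belong to the miR-15 and miR-107 group, whose members carry the bases AGCAGC near the 5′ end and are known for acting on the cell cycle and metabolism. The bases start at position 1 in miR-103-3p and miR-107-3p and at position 2 in the others, shown with these 6 bases in capitals.
miR-15a-5p (Mir15a): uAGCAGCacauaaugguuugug
miR-15b-5p (Mir15b): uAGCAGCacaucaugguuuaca
miR-16-5p (Mir16-1 and Mir16-2): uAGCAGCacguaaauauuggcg
miR-195a-5p (Mir195a): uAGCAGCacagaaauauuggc
miR-497a-5p (Mir497): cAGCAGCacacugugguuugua
miR-322-5p (Mir322): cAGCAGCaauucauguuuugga
miR-503-5p (Mir503): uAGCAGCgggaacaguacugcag
The seed, at bases 2 to 8, is therefore AGCAGCA in miR-15, miR-16, miR-195a and miR-322, AGCAGCG in miR-503 and GCAGCAU in miR-103 and miR-107.

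The Pank miRNAs made up a small part of this group by uniquely aligned counts. Of the 11 listed genes, 10 were analysed by sense counts and 9 of these were detected, Mir103-1 being the exception. Over all 1973 genes 15.3% were detected, and the group was chosen with earlier results of these data known. The 10 genes summed to 53257 CPM in replicate 2 and 51523 CPM in replicate 1, against 1770 and 1712 CPM for the 3 Pank miRNAs. Mir322, from the X chromosome, led with 30861 ± 684 CPM (SD, n = 2), followed by Mir15a at 9124 ± 13.2 CPM, Mir16-1 at 5251 ± 561 CPM and Mir15b at 3110 ± 302 CPM. Mir107 came next, above Mir503 at 1022 ± 67.7 CPM, Mir16-2 at 1021 ± 173 CPM and Mir195a at 259 ± 15.3 CPM, with Mir103-2 and Mir103-1 last. Mir16-1 and Mir16-2 share miR-16-5p, so their levels are uncertain in the same way as those of the Mir103 genes. In the exact binomial test 8 of the 10 were higher and 1 lower in replicate 2, the lower one being Mir15b, beside 22.2% higher and 18.3% lower over all 465 rows. The median log2 ratio was 0.18 against 0.02 over all 465 rows. With library sizes as total counts, 5 were higher and 1 lower, beside 78 and 101 of all 465 rows. Limited to rows with at least 100 counts, 8 of 9 group genes were higher and 1 lower with TMM, beside 99 and 83 of 290 rows. In edgeR's negative binomial test at 0.1 none passed (0 of 10, 1 of them at an unadjusted p under 0.05), beside 12 of all 465 rows.

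**Figure D5:**
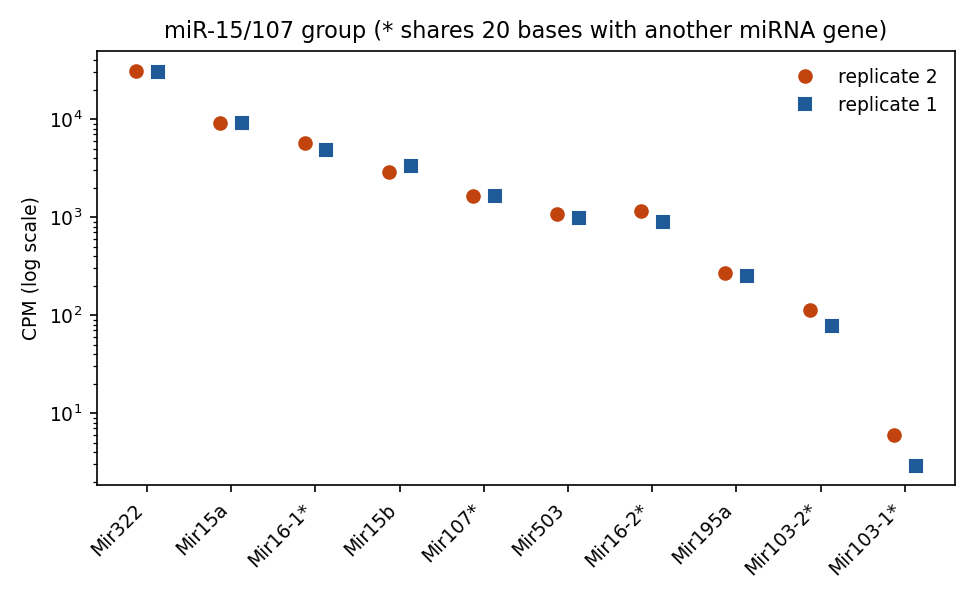
CPM (log scale) of the 10 analysed genes of the miR-15 and miR-107 group in replicate 2 (circles) and replicate 1 (squares), ordered by mean; an asterisk marks a gene whose hairpin shares 20 bases with another miRNA gene. Mir322 leads with a mean of 30861 CPM, Mir107 stands in mid-order with 1641 CPM, and Mir103-2 and Mir103-1 are the lowest.

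Other members of the miR-378 family had few counts on their own sense strand. Mir378d stood at 22.5 ± 1.0 CPM (SD, n = 2), Mir378c at 11.6 ± 2.03 CPM and Mir378b at 4.57 ± 1.94 CPM, summing to 38 CPM in replicate 2 and 39 CPM in replicate 1. The opposite strand of Gm25301, at 9707 and 9498 CPM, was far above this sum in both libraries. Mir378c shares 20 bases with Gm25301 and Mir378a, so reads that fit both places are missing from its count and from the sum. None of these 3 genes was called between the libraries in the exact binomial test (0 of 3, also at an unadjusted p under 0.05), beside 40.4% of all 465 rows. Their counts were few, in replicates 2 and 1 77 and 80 for Mir378d, 36 and 45 for Mir378c and 21 and 11 for Mir378b. The 95% intervals of the log2 ratio were wide, -0.51 to 0.43, -0.98 to 0.36 and -0.17 to 2.15, so only a large difference could be called. In edgeR's negative binomial test 0 of 3 passed, beside 12 of 465 rows at a coefficient of 0.1.

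Among miRNAs known for roles in cholesterol or fatty acid handling, all 16 listed genes reached 10 CPM in both libraries, beside 15.3% of all 1973 genes. The 16 were chosen with earlier results of these data known and include the cell type markers Mir122, Mir143, Mir144 and Mir223. Their median was 1010 CPM, beside a median of 316 CPM over all detected genes. Mir122, which supports cholesterol synthesis in hepatocytes, stood at 47128 CPM in replicate 2 and 60913 CPM in replicate 1. Mir143, linked to adipocyte differentiation, followed at 19685 ± 916 CPM (SD, n = 2), and Mir106b, which can repress Abca1, at 10083 ± 828 CPM. The lowest was Mir128-2 at 32.0 ± 1.58 CPM, and it shares 20 bases with Mir128-1. Mir33, at 101 CPM, and Mir107, at 1641 CPM, lie within this range, and so does the opposite strand of Gm25301 at 9603 CPM. In the exact binomial test 7 of the 16 were higher and 4 lower in replicate 2, beside 22.2% higher and 18.3% lower over all 465 rows, with a median log2 ratio of 0.12. With total counts as library sizes 5 were higher and 5 lower, beside 78 and 101 of all 465 rows. Limited to rows with at least 100 counts, 7 of the 16 were higher and 4 lower with TMM, beside 99 and 83 of 290 rows. In edgeR's negative binomial test none passed (0 of 16 at 0.1, 1 of them at an unadjusted p under 0.05, and 0 of 16 at the estimated coefficient). Few rows passed in that test at all, 12 of 465 at 0.1 and 5 of 465 at the estimated coefficient, which contains the difference being tested.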

How the data were processed

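Per the files' own lists, the authors aligned short reads to mm10 and deposited raw read counts per miRNA gene of GENCODE M4, for both strands, the sense strand and the opposite strand. The names of the aligner and the counter were not given in the sources used here. Unmapped reads (25.8% in replicate 2, 29.4% in replicate 1) and multiply aligned reads (31.1% and 28.8%) were left out. The sense counts also leave out reads not on the sense strand of a listed gene (11.0% and 10.6%) and ambiguous reads (0 and 1). The opposite-strand counts fall within the former class. Depth was 11013976 and 11057424 reads, with 363712 and 374792 opposite-strand counts.

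Symbols and positions came from GENCODE M21 on the same assembly, which held 1894 of 1973 identifiers, and sequences from RefSeq (GRCm38.p6), which matched 4 of the 5 members. Genes whose hairpin shared 20 bases with a miRNA gene elsewhere (929) were taken as uncertain. Gm25301 was counted on the opposite strand, all others on the sense strand, and scaled to sense counts. Rows with at least 10 counts were compared in an exact binomial test (two-sided) against TMM-scaled library sizes (edgeR 4.0.16, scipy 1.17.1), adjusted at 0.05, with 0.5 counts added for the log2 ratio. It compares 2 libraries and was tested on simulated data with counting error only, which cannot show how it does under a larger spread between libraries. The alternatives were other denominators and size factors (DESeq2 1.42.0), other minimum counts, both strands, and edgeR's negative binomial test.

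Genes named were the members and Mir378a, the genes of the miR-15 and miR-107 group and of the miR-378 family, the 3 highest and the lowest cholesterol and fatty acid miRNAs, the neighbours by level, and the cell type markers. Members and lists were chosen with earlier results of these data known. Mir206, Mir133b, Mir497b and the genes of the other observations were chosen after their values were seen.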

Additional observations from a re-analysis of the deposited data

How the results depend on the processing

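Scaled to every read in a library instead of to sense counts, the mean levels were 519 CPM for Mir107, 30.4 CPM for Mir103-2, 1.41 CPM for Mir103-1, 32.1 CPM for Mir33 and 3039 CPM for the opposite strand of Gm25301, lower because the denominator is larger. Without genes that share 20 bases in the denominator, Mir107 stood at 1835 CPM and the opposite strand of Gm25301 at 10739 CPM, and with both strands counted together at 1484 and 8684 CPM. TMM and DESeq2 library sizes were set to the same geometric mean as the total counts, so the 5 mean levels could hardly move with them. The SD did move. For Mir107 it went from 13.2 CPM to 57.2 with TMM and 42.1 with DESeq2. For the opposite strand of Gm25301 it went from 148 CPM to 405 and 317. Leaving out a replicate leaves the value of the other, which for Mir103-1 is 5.94 CPM in replicate 2 and 2.9 CPM in replicate 1, against a mean of 4.42 CPM, and with 2 replicates this shows nothing of stability. In the negative binomial test, 12 genes were called at a coefficient of variation of 0.1 (6 higher and 6 lower in replicate 2). With the estimated one 5 were called (3 higher and 2 lower), and 0 of the 5 loci in either. The cause is the larger spread these tests allow, and the estimated one contains the difference between the libraries itself. With DESeq2 size factors Mir107 was not called (adjusted p = 0.122, exact test), as with total counts, and the direction of all 5 loci was the same in every setting that tested them. At a threshold of 100 CPM, 0 of the miR-378 copies were detected. The strand shares were the same without either replicate. No paired analysis was possible because there is 1 group. Few counts limit Mir103-1, and reads that fit several hairpins are missing from both Mir103 genes in unknown number.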

Other observations

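The strand pattern at Gm25301 was shared by a few other rows. Of the 1973 listed genes, 17 had at least 10 opposite-strand counts in both libraries, and in 10 of these the opposite strand held over 90% of the counts in both. Gm25301 ranked 3 by opposite-strand counts, after Mir142b at 42354 CPM and Gm24321 at 29077 CPM, and held 9.43% of all opposite-strand counts in replicate 2 and 8.74% in replicate 1.

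Mir497, a gene of the miR-15 and miR-107 group, has no row of its own in the counts analysed here, but M21 places it opposite Mir497b. The opposite strand of Mir497b had 1229 counts in replicate 2 and 1248 in replicate 1, or 355 ± 10.1 CPM (SD, n = 2), against 3 and 1 counts on its sense strand. At that level it would stand between Mir16-2 and Mir195a in the group.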
